A study of Mus musculus with 4 samples.

Results

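The cells described here were 1209 endothelial cells of the mouse heart that were selected on their counts of 5 genes, Fbln5, Eln, Gkn3, Clu and Htra1, out of 21920 cells in 4 single-cell RNA-sequencing libraries. A cell was chosen by its unique molecular identifiers (UMIs, 1 for each captured RNA molecule). It had at least 1 UMI of the endothelial genes Pecam1, Cdh5 and Egfl7 together and none of the endocardial genes Npr3 and Tmem108. The sum of its UMIs of the 5 genes, called B below, was at least 2, was above the summed UMIs of Cxcl12, Glul, Alpl, Nebl and Stmn2 (called A), and was not below those of the mural genes Col1a1, Col1a2, Acta2 and Rgs5. The working name of these cells was large artery cells. The data bore that name out only in part. The selection also held cells with lymphatic, valve and fibroblast genes and cells of low B with high levels of capillary genes. The cells are therefore called Fbln5/Eln cells after a pair of the selecting genes, although in the adult Clu supplied more of the selecting UMIs than either. They are described beside 2469 cells called Cxcl12/Glul cells, which had an A of at least 3 that was above B. The Cxcl12/Glul cells also had at least 1 UMI of the endothelial genes, none of the endocardial genes and no more mural UMIs than A. The 13234 other endothelial cells, a mixed class that includes endocardial cells, serve as a further reference.

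The study sorted CD31+/CD45- cells from hearts of C57Bl6J mice and prepared 1 droplet library, which counts the 3' ends of transcripts, at each of 4 stages, namely embryonic day 12 (E12), embryonic day 15 (E15), postnatal day 2 (P2) and adult animals of 8 weeks. The hearts of 37, 48, 21 and 6 animals were pooled for these libraries, in that order. Sorted cells were frozen and thawed before loading, and dead cells were then removed with a kit at E12 and E15 and by a repeated sort for live cells at P2 and in the adult. Stage, library and this handling cannot be told apart. With 1 library per stage there was no test, and the exact 95% intervals given below cover counting error only.

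The libraries, here and below in order of age, held 5732, 6062, 5884 and 4242 cells. Fbln5/Eln cells numbered 198, 178, 602 and 231 of them. They made up 7.23% of the E12 endothelial cells (6.29 to 8.27), 4.24% of those of E15 (3.65 to 4.90), 10.3% of those of P2 (9.49 to 11.1) and 5.62% of the adult ones (4.94 to 6.37). The P2 cells were the most deeply sequenced, with a median of 4780 UMIs in Fbln5/Eln cells against 1196, 1024 and 1928 in the E12, E15 and adult libraries. The other endothelial cells had medians of 1272, 1038, 4488 and 1308 UMIs. A fixed minimum of 2 UMIs is easier to reach in a deeper cell, and with each cell thinned to 500 UMIs the share was 6.22% at P2 and 5.55% at E12.

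Elastic arteries such as the aorta and pulmonary trunk stretch with each beat on concentric sheets of elastic fibre, whose core is elastin on a scaffold of fibrillin and whose assembly needs fibulins and lysyl oxidase. Smooth muscle cells make most of this matrix, and the endothelium of large arteries also takes part, while coronary arteries are muscular and carry less of it. Arterial endothelium in general is marked by connexins such as Gja5 and Gja4 and by Notch signalling, and capillary endothelium of the heart by fatty acid handling genes.

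Of the 5 selecting genes, Eln, which encodes elastin, supplied most UMIs before adulthood. Its level in Fbln5/Eln cells was 3045 counts per 1000000 UMIs (CPM) in the E12 library, 7748 at E15, 3829 after birth and 712 in adult cells. Fbln5, a fibulin that binds elastin and helps its fibres form, stood at 758, 1541, 792 and 1192 CPM. In these cells both levels were highest at E15 and Eln was lowest in the adult. The minimum of 2 UMIs asks for a higher CPM in the shallow E15 cells, so this order is not read as a stage difference. In other endothelial cells Eln was highest at P2 (491 CPM, against 139 CPM at E15) and Fbln5 lowest at E15 (30.4 CPM). Clu, the secreted chaperone clusterin, was higher in each older library, with 64.0, 180, 336 and 2116 CPM. Htra1, a secreted serine protease, was at 243, 346, 277 and 507 CPM, and Gkn3, a gastrokine, at 239, 346, 88.5 and 235 CPM. Eln gave 70.0%, 76.2% and 71.9% of the selecting UMIs in the first 3 libraries and 15% in the adult one, where Clu gave 44.4%. The adult cells were thus chosen largely on other genes than the younger ones. These values are the basis of the choice and are given as a description.

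**Figure D1:**
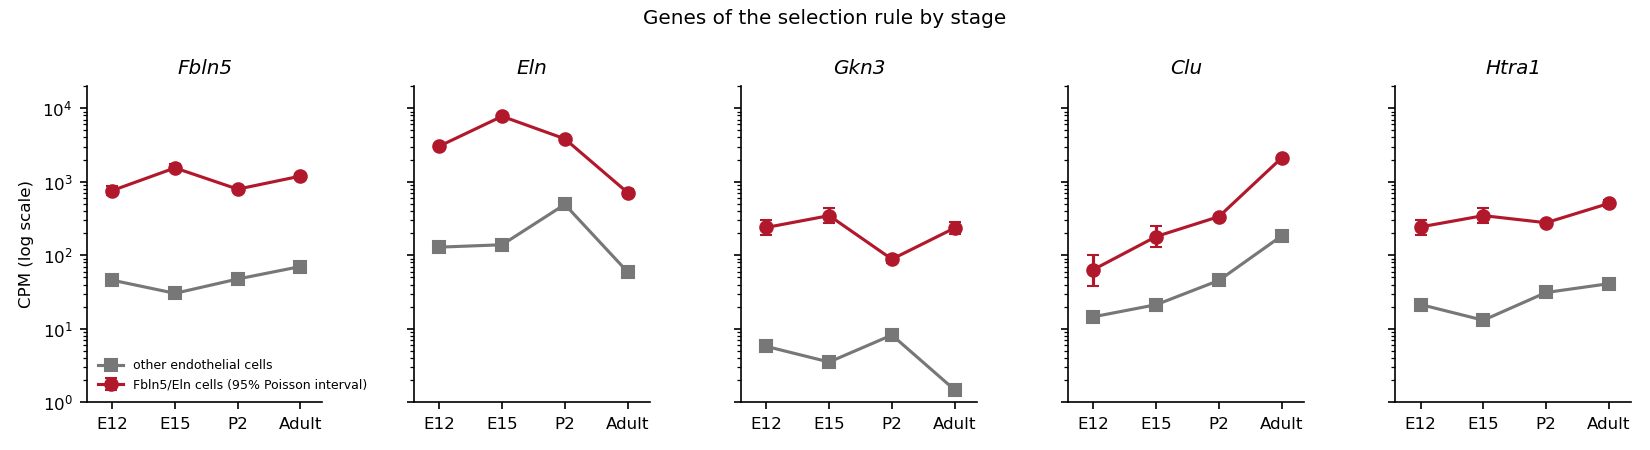
Level of the 5 selecting genes (CPM, log scale) at the 4 stages in Fbln5/Eln cells (red, with 95% Poisson intervals) and in other endothelial cells (grey). In Fbln5/Eln cells Eln was highest at E15 (7748 CPM) and lowest in the adult (712 CPM), while Clu was highest in the adult (2116 CPM). For Eln and Clu the other endothelial cells differed in the same direction between P2 and the adult. The selection and sequencing depth bear on these levels, so their order between stages is a description only.

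Stage ratios of the selecting genes are given for both classes as a description only. A minimum of 2 UMIs stands for a higher CPM in shallower cells, and median UMIs of Fbln5/Eln cells were 1024 at E15 and 4780 at P2. The selection also took many cells with these genes out of the other endothelial cells. Whether a ratio was alike or opposite in the classes therefore depends on the selection and on depth, and nothing is read from it. From P2 to the adult library, Eln was 5.37-fold lower in Fbln5/Eln cells (4.84 to 5.98) and 8.27-fold lower in the other endothelial cells (7.19 to 9.55). Clu was 6.30-fold higher in Fbln5/Eln cells (5.79 to 6.86) and 4.05-fold higher in the others (3.66 to 4.47). Eln was 2.54-fold higher at E15 than at E12 in Fbln5/Eln cells (2.34 to 2.76), whereas in other endothelial cells the ratio was 1.08 (0.957 to 1.22). Fbln5 and Htra1 were higher at E15 than at E12 in Fbln5/Eln cells, with ratios of 2.03 (1.71 to 2.42) and 1.43 (1.02 to 2.00), and lower in the others, with ratios of 0.664 (0.528 to 0.834) and 0.613 (0.433 to 0.866). Gkn3 had ratios of 1.45 (1.03 to 2.04) and 0.614 (0.304 to 1.22). From E15 to P2 the ratios lay on opposite sides of 1 for 4 of the 5 genes, with Eln at a ratio of 0.494 in Fbln5/Eln cells and 3.52 in the others, Fbln5 at 0.514 and 1.57, Gkn3 at 0.256 and 2.32, and Htra1 at 0.80 (0.630 to 1.03) and 2.37. Gkn3 was also opposite from P2 to the adult, with ratios of 2.65 (2.13 to 3.29) and 0.179 (0.0576 to 0.426). On the mouse GRCm38 build, the 5 genes lie on different chromosomes: Eln at chr5:134702593-134747323, Gkn3 at chr6:87383256-87388935, Htra1 at chr7:130936111-130985660, Fbln5 at chr12:101746565-101819055 and Clu at chr14:65968483-65981547.

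The 5 genes were seldom all found in 1 cell. At P2, 143 of the 602 cells had UMIs of 1 selecting gene only, 200 had at least 3 of the genes and 49 had all 5, and the highest B was 725 UMIs against a median of 6. All 5 genes were present in 0 E12 cells, 4 E15 cells and 14 adult cells. Gkn3 was present in 44, 38, 76 and 34 cells. At P2 all 76 cells with Gkn3 also had Eln, as did 524 of the 602 cells, and 67 of them had Fbln5. In the adult 22 of the 34 cells with Gkn3 had Eln, and at E12 Gkn3 was found in 22.2% of the cells with Eln and in 22.2% of those without. Its share among other endothelial cells was 0.837%, 0.375%, 0.965% and 0.194%. Eln was found far more widely, in 10.8%, 9.08%, 39.4% and 6.10% of the other endothelial cells. These shares were not thinned and cannot be compared between stages, since the P2 cells were the deepest. In E12 barcodes of fewer than 100 UMIs, which hold free RNA and no cell, Eln stood at 652 CPM and Gkn3 at 16.5 CPM, so low counts of Eln are not specific to a cell.

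Many cells lay close to the limits of the selection. Cells at the minimum, with a B of 2, numbered 47, 39, 132 and 36, and cells with a B of 1 that met the other conditions on A and mural genes were not counted and numbered 128, 181, 363 and 59. A further 6, 1, 38 and 47 cells were left out because B equalled A. Mural genes outweighed B in 30, 22, 10 and 15 cells, and Fbln5/Eln cells with at least 1 mural UMI numbered 82, 36, 92 and 28.

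Markers of other cell types were checked with lists of genes outside the selection, and a cell was said to carry a list when it had UMIs of at least 2 different genes of it. Lymphatic endothelial genes (Ccl21a, Lyve1, Mmrn1, Pdpn, Reln and Flt4, all 6 detected) were carried by 109 of the 602 Fbln5/Eln cells at P2, or 18.1% (15.1 to 21.4), against 4.93% of Cxcl12/Glul cells and 3.52% of other endothelial cells. With cells thinned to 500 UMIs these shares were 9.97%, 2.14% and 0.515%. No Fbln5/Eln cell carried the list at E12, which allows a share of up to 1.52%, and none at E15, which allows up to 1.69%, while 1 cell did in the adult. These limits concern the detection of 2 of the genes in shallow cells, and 11 and 41 lymphatic UMIs were present at E12 and E15. The P2 library thus held nearly all of the cells found to carry the list. They supplied 99.1% of the lymphatic UMIs of the P2 Fbln5/Eln cells, which follows in part from their choice by the same list. The list summed to 4380 CPM in all P2 Fbln5/Eln cells, with 945 CPM in Cxcl12/Glul cells and 355 CPM in other endothelial cells. Ccl21a, a chemokine of lymphatic endothelium, was the most abundant gene at 3885 CPM.

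Genes of valve endothelium were carried by 6, 10, 168 and 25 Fbln5/Eln cells. At P2 this was 27.9% (24.4 to 31.7), beside 3.78% of Cxcl12/Glul cells, 13.8% of other endothelial cells and 30.5% of endocardial cells, and all 8 genes were detected, summing to 513 CPM with Cldn11 the most abundant. With cells thinned to 500 UMIs the P2 shares were 4.32%, 0.329%, 1.07% and 1.99%, so that the order of Fbln5/Eln and endocardial cells turned. The cushion and fibroblast list (Dcn, Postn, Col3a1, Lum and others) was carried by 75, 37, 189 and 33 cells, or 37.9%, 20.8%, 31.4% and 14.3%, against 17.7%, 8.91%, 25.8% and 6.19% of other endothelial cells. Thinned to 500 UMIs, the shares of Fbln5/Eln cells were 19.7%, 8.98%, 9.63% and 8.23%, against 6.81%, 3.82%, 4.78% and 2.81% of other endothelial cells. Its summed level in Fbln5/Eln cells was 2146, 1404, 1256 and 2937 CPM. Endocardial cells carried it more often at P2 (54.4%, with 1529 CPM) and in the adult (54.8%, with 3192 CPM), but thinned their P2 share was 9.96%, close to that of Fbln5/Eln cells, and their adult share 17.4%. Col3a1, a fibrillar collagen, led it at E12 and E15, and Dcn, the proteoglycan decorin, at P2 and in the adult. Taking the lymphatic, valve and cushion lists as 1 test of the name, 121, 137, 298 and 189 cells carried none of them. This was 61.1%, 77.0%, 49.5% and 81.8%. Vein and endocardial lists were not part of that test. The vein list was carried by 22.7%, 25.8%, 76.7% and 34.2% of Fbln5/Eln cells, against 26.5%, 28.7%, 72.5% and 19.0% of other endothelial cells. For the endocardial list the shares were 44.4%, 38.2%, 76.7% and 32.5%, against 72.7%, 65.5%, 67.8% and 13.5%. Thinned to 500 UMIs, the adult shares were 9.09% against 6.92% for vein and 8.23% against 6.19% for endocardial genes. Shares not given as thinned cannot be compared between stages, since a list is more easily found in the deeper P2 cells.

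Genes of further cell types were found as well. Smooth muscle and pericyte genes summed to 573 CPM at E12, with Tagln the most abundant and Myh11, Kcnj8 and Abcc9 at 0, and to 275, 70.9 and 118 CPM later. In other endothelial cells the list was at 239, 139, 50.4 and 287 CPM. It was carried by 14.6%, 6.18%, 3.99% and 1.30% of Fbln5/Eln cells, against 3.71%, 1.50%, 1.87% and 1.98% of other endothelial cells. Thinned to 500 UMIs, these shares were 2.07% and 1.80% at E12 and E15, against 0.810% and 0.185%, and no Fbln5/Eln cell was found to carry the list at P2 or in the adult, against 0.236% and 0.822%, which at this depth does not show that such cells were absent. In the embryo its level was thus above those of the valve list (185 and 242 CPM) and the lymphatic list (37.0 and 194 CPM). The cardiomyocyte list stood at 87.6, 42.7, 83.3 and 38.8 CPM. In the E12 cells the platelet genes Pf4 and Ppbp reached 266 UMIs, but 261 of them came from 2 cells. Erythroid genes were at 148, 37.9, 12 and 36.9 CPM, which was below the 776, 686, 25.5 and 378 CPM of other endothelial cells. The median share of mitochondrial UMIs was 3.50%, 2.40%, 3.39% and 4.45% in Fbln5/Eln cells and 3.14%, 2.46%, 3.63% and 4.64% in other endothelial cells. Doublet scores over 0.15, from a tool that compares cells with simulated pairs, were found in 13.6%, 15.7%, 6.64% and 3.90% of Fbln5/Eln cells and in 7.61%, 10.9%, 4.21% and 1.55% of other endothelial cells, a higher share in Fbln5/Eln cells at each stage. The part that captured RNA of other cells, or pairs of cells in 1 droplet, had in the levels of these genes was not tested.

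The name was then checked against 14 further genes of large artery endothelium that had no role in the selection, including Mgp, Cytl1, Vwf, Fbln2 and Bmx. The list summed to 3082, 8241, 7114 and 18210 CPM in Fbln5/Eln cells. In other endothelial cells it was at 1606, 3240, 4638 and 6953 CPM, and in Cxcl12/Glul cells at 2354, 2932, 4083 and 7223 CPM. The list was thus highest in Fbln5/Eln cells among these 3 classes in each library, although the Cxcl12/Glul class held just 29 and 21 cells at E12 and E15. Fbln5/Eln cells that carried lymphatic, valve or cushion genes had more of it than the rest at P2 (7717 against 6430 CPM) and in the adult (23294 against 16078 CPM), and less at E12 and E15 (2345 against 3972 and 5551 against 9596 CPM). The list was not particular to arteries, since endocardial cells with at least 2 UMIs of Npr3 and Tmem108 had 7754 CPM of it at P2 and 20886 CPM in the adult.

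Fbln5/Eln cells were not uniform, and the count that chose them ran along with other genes. They were divided by B into cells with 2 to 3, 4 to 14 and at least 15 UMIs, which gave 67, 122 and 9 cells for E12, 54, 70 and 54 for E15, 202, 224 and 176 for P2, and 59, 123 and 49 for the adult. At P2 the large artery list summed to 2993, 5284 and 14160 CPM in the 3 ranges, and the list of arterial identity and Notch genes to 2271, 2452 and 4133 CPM. The capillary list ran the other way, with 22314, 8983 and 7834 CPM, so that P2 cells with the lowest B came close to the 23564 CPM of the Cxcl12/Glul cells. Their 2993 CPM of the large artery list was below the 4083 CPM of Cxcl12/Glul cells and the 4638 CPM of other endothelial cells at P2. Of these 202 cells, 71.8% carried none of the lymphatic, valve and cushion lists. The lymphatic list was highest in the middle range, with 2461, 8703 and 1062 CPM.

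In the adult the same division gave 13537, 17057 and 23002 CPM of the large artery list and 23355, 13653 and 7087 CPM of the capillary list. The cushion and fibroblast list was highest in the adult cells with the highest B, at 1395, 2147 and 5130 CPM. At E15 the large artery list stood at 4383, 7256 and 13594 CPM. The list of arterial identity and Notch genes did not rise with B throughout. It was highest in the middle range in the adult (2622, 4802 and 4439 CPM) and at E12 (1489, 2487 and 1573 CPM). At E15 it stood at 1835, 2555 and 3301 CPM. Median UMIs per cell were close to each other in the 3 ranges at P2, with 4800, 4758 and 4712, but not in the adult, with 1257, 1810 and 3271, so depth moved with B in the adult and its part was not tested.

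**Figure D2:**
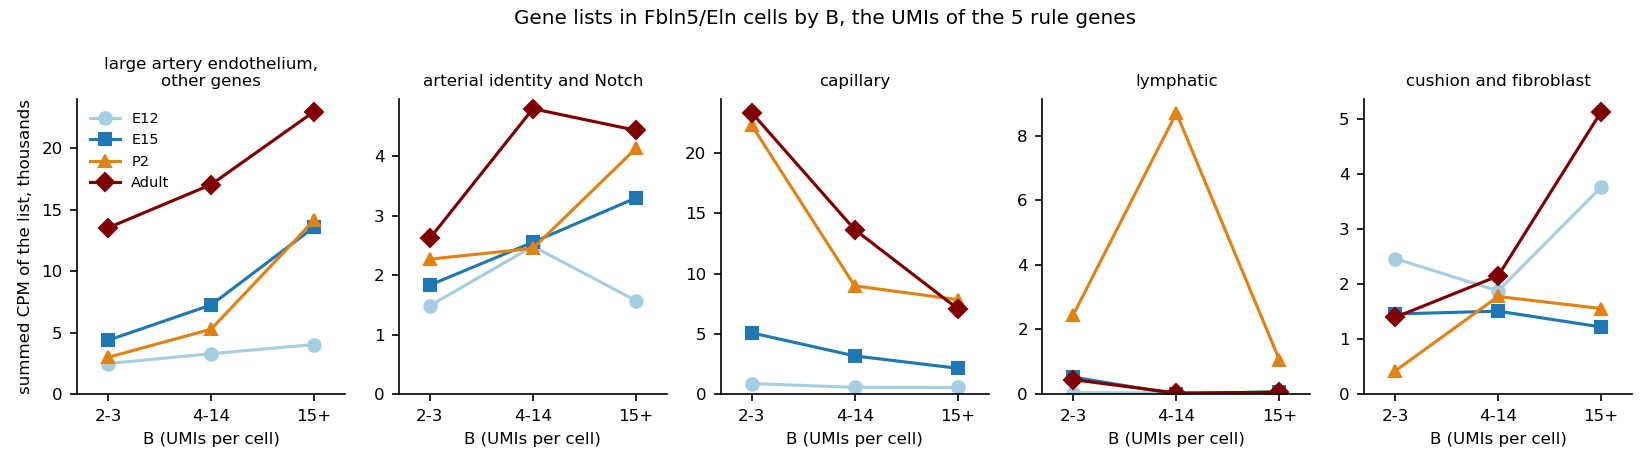
Summed level of 5 gene lists (CPM, axis in units of 1000) in Fbln5/Eln cells with a B of 2 to 3, 4 to 14 and at least 15 UMIs, with 1 line for each stage. The large artery list was highest and the capillary list lowest in cells with the highest B at each stage (22314 against 7834 CPM of the capillary list at P2), and the P2 lymphatic list peaked in the middle range at 8703 CPM.

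Cells with a Gkn3 UMI had more of the large artery list than cells without it in each library, with 4296 against 2798 CPM at E12 and 11312 against 7510 CPM at E15. At P2 the 76 cells with Gkn3 had 16034 CPM of the large artery list, 6332 CPM of the capillary list and 1024 CPM of the lymphatic list, and the 526 without it had 5840, 14074 and 4859 CPM. Mgp, an inhibitor of calcification made in the arterial wall, was at 5012 CPM with Gkn3 and 600 CPM without, a ratio of 8.35 (7.83 to 8.92). Lox, the lysyl oxidase that crosslinks elastin, was 14.1-fold higher (10.7 to 18.7), Ace, which makes angiotensin II, 8.16-fold (6.10 to 10.9) and Gja5, the arterial connexin 40, 6.77-fold (5.35 to 8.56). Gpihbp1, the capillary anchor of lipoprotein lipase, was at 133 CPM with Gkn3 and at 731 CPM without. These cells also had more UMIs of the other selecting genes, with a median B of 98 against 5.

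The split was alike in the adult. The 34 adult cells with Gkn3 had 29002 CPM of the large artery list and the 197 without it 16348 CPM, while the capillary list was at 5515 and 14987 CPM and the cushion and fibroblast list at 765 and 3312 CPM. Cytl1, a secreted cytokine-like protein, was 10.5-fold higher with Gkn3 (8.82 to 12.5), Mgp 4.33-fold (3.93 to 4.76) and Gja5 3.17-fold (2.17 to 4.57). At E12 and E15, Gja5 stood at 124 and 148 CPM with Gkn3 and at 45.7 and 52.8 CPM without, with ratios of 2.72 (0.893 to 7.68) and 2.80 (0.820 to 8.80) whose intervals reached below 1. Gja4, the arterial connexin 37, was higher in cells with Gkn3 at all 4 stages, by 3.83-fold (2.36 to 6.21), 2.17-fold (1.37 to 3.37), 2.94-fold (2.54 to 3.4) and 2.42-fold (1.56 to 3.68).

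**Figure D3:**
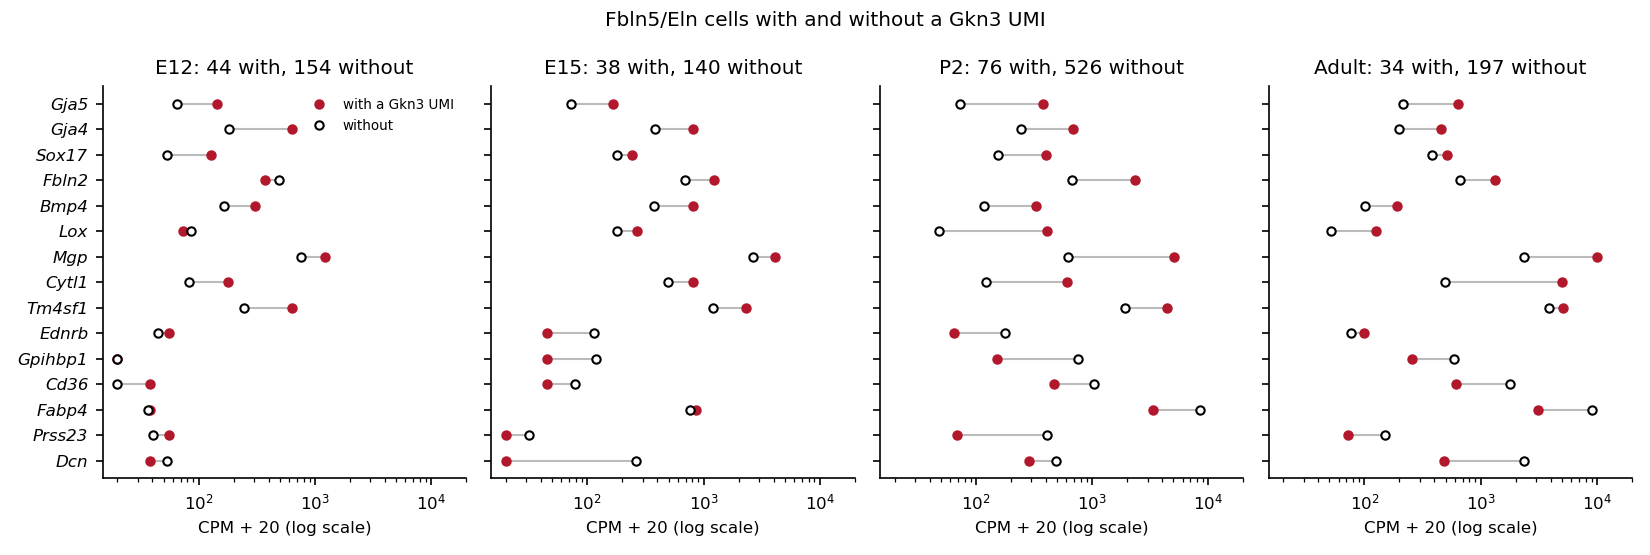
Level of 15 genes outside the selection (CPM plus 20, log scale) in Fbln5/Eln cells with (red) and without (open) a Gkn3 UMI at each stage. At P2 and in the adult, arterial and matrix genes such as Gja5, Lox and Mgp were higher and capillary genes such as Gpihbp1 and Fabp4 lower in the cells with Gkn3.

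The main comparison set Fbln5/Eln cells against Cxcl12/Glul cells of the same library. UMIs were summed over each class, 20 CPM was added to each level, and a gene was counted as different when the sums were at least 2-fold apart. Log2 ratios include the added 20 CPM. Ratios and folds of single genes are of the levels without it, and are therefore larger for genes of low level. These counts describe classes that the selection itself separated, and nothing is read from their size. At P2, 172 of 10566 genes (1.63%) were higher in Fbln5/Eln cells and 77 (0.729%) lower. In the adult, 254 of 9483 genes (2.68%) were higher and 106 (1.12%) lower. The Cxcl12/Glul class was small in the embryo, with 29 and 21 cells. Of 2365 genes measured at E12, 275 (11.6%) were higher and 56 (2.37%) lower, and of 1707 genes at E15, 281 (16.5%) were higher and 121 (7.09%) lower. The E12 Cxcl12/Glul cells had 736 CPM of the cardiomyocyte list, against 87.6 CPM in Fbln5/Eln cells. Of the embryonic ratios to these cells only counts are given, apart from Gja5 and the genes alike at all 4 stages named below.

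Of the large artery list, 7 of 13 measured genes were at least 2-fold higher at P2 and 9 of 13 in the adult, and none was lower. The median log2 ratio was 1.14 and 1.82, beside 0.05 and 0.02 over all genes measured. Mgp stood at 1151 against 59.5 CPM at P2, a ratio of 19.3 (16.7 to 22.5), and at 3461 against 68.4 CPM in the adult, a ratio of 50.6 (44.2 to 58.2). Vwf, the platelet-binding protein von Willebrand factor, was 12.3-fold higher (8.97 to 17.4) and 12-fold higher (9.48 to 15.2). Fbln2, another fibulin, was 3.13-fold (2.90 to 3.38) and 3.09-fold higher (2.73 to 3.50). These 3 genes stayed on the same side when cells carrying lymphatic, valve or cushion genes were left out, with P2 ratios of 22.3, 16.4 and 4.55 and adult ratios of 36.5, 12.3 and 3.99. The P2 ratio of Cytl1 was 32.1 (19.6 to 56.6), or 5.04 without those cells, and in the adult the gene was at 1128 against 8.87 CPM, 127-fold higher (88.6 to 189), with a ratio of 69.2 without those cells. Cells carrying vein or endocardial genes were not left out here, so these values do not set the genes apart from such cells.

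Elastic fibre genes had a similar course, with 7 of 12 measured genes higher at P2 and 9 of 12 in the adult, none lower, and median log2 ratios of 1.05 and 1.33. Lox had ratios of 14.4 (8.70 to 25.6) and 12.4 (5.89 to 27.6) at these 2 stages. Fbn1, which encodes the fibrillin of microfibrils, was 2.46-fold (2.02 to 3.01) and 3.29-fold higher (2.3 to 4.66). Mfap2, another microfibril protein, was 4.0-fold higher at P2 (3.60 to 4.45) but 1.51-fold without the cells carrying other lists. Without those cells the median of the elastic fibre list was 0.57 at P2 and 0.42 in the adult. Against other endothelial cells only Lox of 15 measured genes was higher at P2 (median 0.16) and 4 of 13 in the adult (median 0.62), and endocardial cells had more of the list than Fbln5/Eln cells at P2 (2682 against 1857 CPM). Basement membrane genes, by contrast, seldom differed by 2-fold, with median log2 ratios of -0.37 at P2 and -0.18 in the adult. Their summed level was lower than in Cxcl12/Glul cells, at 5346 against 8582 CPM at P2 and 3329 against 5717 CPM in the adult. None of 14 was higher and 1, Nid2, lower at P2, and in the adult Col18a1, a collagen that releases endostatin, was 2.93-fold higher (2.32 to 3.69) while Col4a2 and Sparc were lower.

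Genes of arterial identity and Notch signalling had different counts at the 2 later stages. At P2 none of 18 measured genes was higher in Fbln5/Eln cells and 3 were lower, with a median log2 ratio of -0.39. Sox17, a transcription factor of arterial fate, was at 166 against 528 CPM, 3.19-fold lower (2.89 to 3.52). Hey1, a Notch target, was 2.76-fold lower (2.35 to 3.25), and Unc5b, a netrin receptor, 2.86-fold lower (2.34 to 3.51). In the adult 3 of 17 measured genes were higher and none lower. Gja5 was at 258 against 47.8 CPM, 5.40-fold higher (4.27 to 6.82), Gja4 2.91-fold higher (2.31 to 3.65) and the Notch ligand Jag1 2.83-fold higher (2.33 to 3.42). Hey1 was at 256 against 183 CPM in the adult, a ratio of 1.40 (1.15 to 1.69), and Sox17 had a ratio of 1.06 (0.906 to 1.23). Sox17 and Hey1 were 1.83-fold and 1.89-fold lower at P2 without the cells carrying other lists. The P2 log2 ratio of Gja5, 0.46 over all Fbln5/Eln cells, was 1.10 without those cells, which is past 2-fold higher as in the adult.

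Genes that act on vessel tone and clotting were partly higher. Of the vasoactive and antithrombotic list, 4 of 12 measured genes were higher at P2 (Procr, Serpine2, Ptgis and Ece1), none was lower, and the median log2 ratio was 0.47, or 0.24 without the cells carrying other lists. Procr, the receptor that speeds protein C activation, was 17.3-fold (11.6 to 27.1) and 11.8-fold higher (7.20 to 19.7). Ace was 4.82-fold higher in the adult (3.8 to 6.11), and at P2 its ratio was 1.80 (1.42 to 2.3). Ptgis, prostacyclin synthase, was 13.0-fold higher at P2 (6.64 to 29.2) but 2.07-fold without the cells carrying other lists. In the list of TGF-beta and BMP genes, 2 of 16 were higher (Bmp4 and Id2) and 1 lower (Id1) at P2 and 1 of 15 higher in the adult. The ligand Bmp4 was higher at both stages, with ratios of 10.6 (7.55 to 15.3) and 4.96 (3.36 to 7.28).

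Flow-responsive genes were near level, with 1 of 10 genes higher (Ptgs1) and 1 lower (Slc9a3r2) at P2 and 1 of 9 higher and 1 lower in the adult. Klf2, a transcription factor induced by shear stress, had ratios of 0.881 (0.850 to 0.914) and 1.06 (0.939 to 1.20). Heg1, a receptor at endothelial junctions, was 2.91-fold higher in the adult (2.55 to 3.31), and Kdr, the main VEGF receptor, was 3.93-fold lower (3.25 to 4.79).

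Capillary genes were often lower in Fbln5/Eln cells, namely 6 of 17 at P2 and 12 of 16 in the adult, with none higher and median log2 ratios of -0.86 and -1.49. Aqp7, a glycerol channel, was 5.48-fold (4.76 to 6.33) and 4.17-fold lower (3.50 to 5.01). Cd36, a fatty acid transporter, was 2.61-fold (2.50 to 2.72) and 2.39-fold lower (2.23 to 2.56). In the adult Car4, a carbonic anhydrase on the capillary surface, was at 27.2 against 321 CPM, 11.8-fold lower (7.01 to 21.7). Rgcc was 5.17-fold lower (4.47 to 6.01), Gpihbp1 4.54-fold (4.02 to 5.15) and the fatty acid binding protein Fabp4 2.68-fold (2.60 to 2.77). The P2 difference was small among cells that carried none of the other lists, where the median was -0.14, while the adult median was then -1.12.

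Genes on the lists of other cell types were also often higher. Vein genes were higher for 5 of 9 at P2 and 4 of 8 in the adult (medians 1.12 and 1.30), endocardial genes for 4 of 10 and 5 of 9 (0.93 and 1.54), valve genes for 4 of 7 and 5 of 5 (1.46 and 1.60), lymphatic genes for 5 of 6 and 0 of 3 (1.54 and 0.06), and cushion and fibroblast genes for 6 of 7 and 4 of 6 (2.49 and 2.97). Without the cells carrying lymphatic, valve or cushion genes the vein medians were 0.91 and 0.92 and the endocardial ones 0.40 and 0.46. Bgn, a small proteoglycan on the vein list, was 12.4-fold (10.2 to 15.1) and 35.8-fold higher (27.4 to 47.4), and without the cells carrying other lists its ratios were 8.90 and 20.0. Dcn, in contrast, had ratios of 57.8 (38.7 to 90.6) and 52.1 (43.6 to 62.7), but of 1.29 and 0.773 without those cells. Gsn, the actin-severing gelsolin, was 33.8-fold higher in the adult, with 501 of its 1032 UMIs in 1 cell, and had a ratio of 0.883 without the cells carrying other lists. Those cells were defined by Dcn and its list, so the values for that list follow from the removal.

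**Figure D4:**
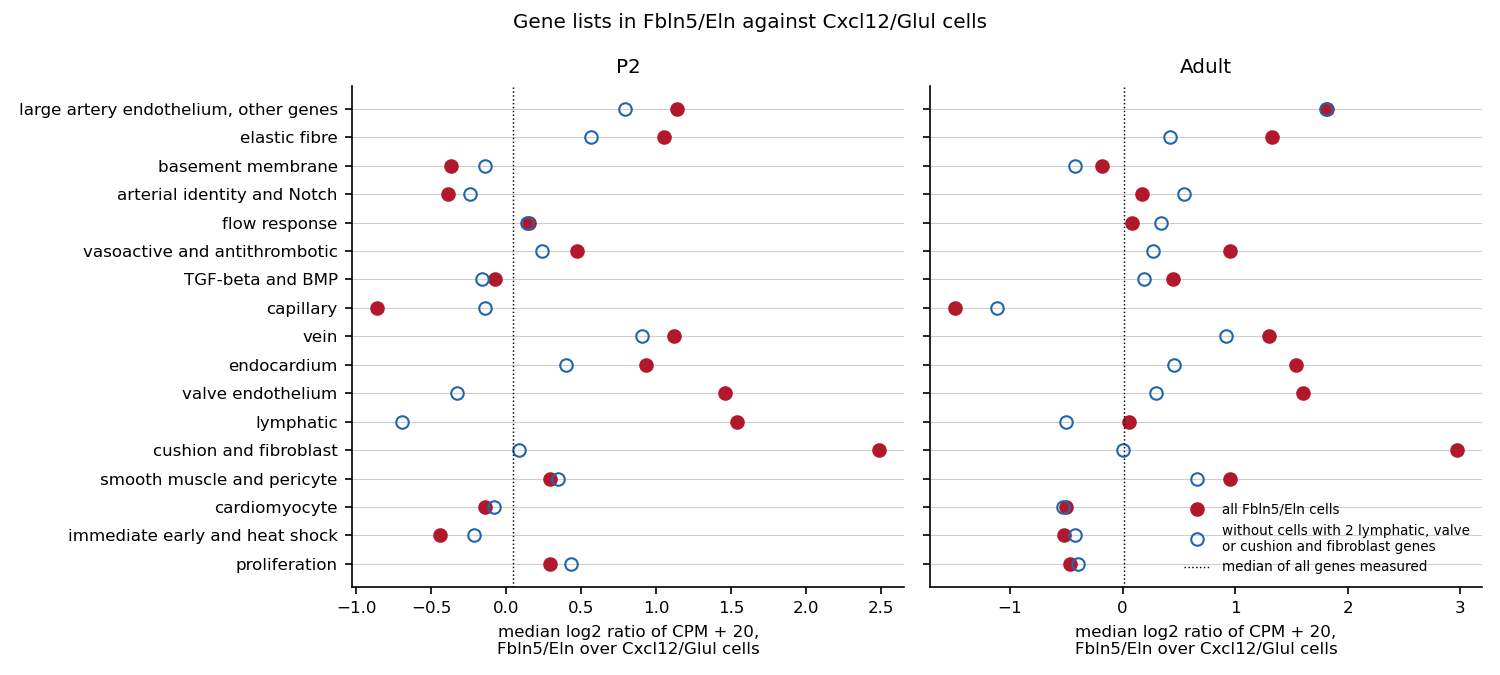
Median log2 ratio of CPM plus 20 in Fbln5/Eln over Cxcl12/Glul cells for each gene list with at least 3 measured genes both at P2 and in the adult. Values are for all Fbln5/Eln cells (red) and without cells carrying lymphatic, valve or cushion genes (open blue), with the median of all genes as a dotted line. The large artery list kept a median of 0.79 at P2 and 1.81 in the adult without those cells, while the cushion list came to 0.08 and 0.00.

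The remaining lists differed mainly in the adult. No smooth muscle gene of 5 and no cardiomyocyte gene of 6 was different at P2, and in the adult Tagln was the only higher gene of 3 and Myl2 the only lower gene of 7. Adult Fbln5/Eln cells had lower levels of 4 of 6 immune and 3 of 4 erythroid genes (medians -1.39 and -2.08), led by Lyz2 and Hba-a1, and at P2 neither list had a different gene of the 1 measured. Immediate early and heat shock genes had medians of -0.44 at P2, with 0 of 13 different, and -0.52 in the adult, with Hspa1a and Hspa1b lower. Of the proliferation genes, 0 of 10 differed at P2 and 0 of 8 in the adult.

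Ranked by ratio, the 10 highest genes at P2 included Dcn, Mgp, Postn, Apoe, Col3a1, Bgn, Cytl1, Ctsh and Ahsg, and Mgp, Bgn, Cytl1, Ctsh, Dcn and Col3a1 were among the 10 highest in the adult as well. Ctsh, the protease cathepsin H, was 11.7-fold (9.38 to 14.8) and 30.4-fold higher (20.7 to 45.8), with 8.68 and 18.1 without the cells carrying other lists. It was thus higher in either setting and at both stages. Among the 10 lowest at P2 were Ly6a and Ly6c1, surface proteins of many endothelial and blood cells. Ly6a was at 214 against 1102 CPM at P2, 5.15-fold lower (4.74 to 5.59), and at 3195 against 3648 CPM in the adult. Ly6c1 was at 286 against 1352 CPM at P2, 4.72-fold lower (4.40 to 5.08), and at 3354 against 4507 CPM in the adult. The gap in both genes was thus much smaller in the adult library.

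A set of 9 genes was counted as at least 2-fold higher than in Cxcl12/Glul cells at all 4 stages, out of 1567 genes measured at each. These were Bgn, Bmp4, Cd63, Ctsh, Cytl1, Fbln2, Fn1, Hapln1 and Lum, and none was lower at all 4. At E12 and E15 this rests on the 29 and 21 Cxcl12/Glul cells described above. At E15 Bmp4, Cytl1 and Lum had no UMI in the Cxcl12/Glul cells, so they were measured there through the Fbln5/Eln cells alone. A gene without UMIs in so few cells may stand at up to 116 CPM. The 2-fold gap at E15 is therefore not secured for each of them. Lum belongs to the cushion and fibroblast list, and its adult log2 ratio of 4.14 was 0.07 without the cells carrying other lists, while that of Fn1 at P2 went from 1.31 to 0.57. At P2 and in the adult together, 92 of 9204 genes were higher and 21 lower. Hapln1 and Bgn also stood at 243 and 240 CPM in the other endothelial cells of E12, beside 320 and 307 CPM in Fbln5/Eln cells, so these 9 genes are not all set apart from endothelium at large.

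Against the other endothelial cells, fewer genes differed. In order of age, 124 of 9728 (1.27%), 157 of 10115 (1.55%), 72 of 12461 (0.578%) and 193 of 9753 genes (1.98%) were higher. The lower ones numbered 96 (0.987%), 112 (1.11%), 10 (0.0803%) and 104 (1.07%). Out of 8533 genes measured at all stages, 11 were higher in each of the 4 libraries, and among them were 3 genes of the arterial list (Gja5, Gja4 and Jag1), the growth factor gene Bmp4 and the matrix genes Fbln2 and Lox. The others were Cd24a, Efna5, Nuak1, Pcsk5 and Serpinf1.

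Gja5 was at 60.6, 71.1, 91.0 and 258 CPM in Fbln5/Eln cells and at 4.39, 15, 9.74 and 11.8 CPM in other endothelial cells. The ratios were 13.8 (6.64 to 28.9), 4.74 (2.52 to 8.35), 9.34 (7.82 to 11.2) and 21.8 (15.2 to 31.9). The gene was thus several-fold higher than in other endothelial cells at each stage and highest in the adult cells. It was found in 15, 12, 79 and 70 of the Fbln5/Eln cells. Beside the 21 Cxcl12/Glul cells of E15, in contrast, it was counted as at least 2-fold lower. Jag1 was at 360, 408, 113 and 301 CPM, with ratios of 7.13 (5.57 to 9.10), 6.99 (5.42 to 8.93), 3.75 (3.30 to 4.26) and 5.82 (4.66 to 7.26). Bmp4 was at 172, 436, 125 and 95.1 CPM against 33.2, 19.4, 24.4 and 21.9 CPM. Like Lox, it was highest at E15, where its ratio was 22.5 (16.7 to 30.4), an order between stages that is given as a description only. Fbln2 had ratios of 5.64, 7.45, 3.55 and 6.55, and Lox of 4.32, 19.1, 6.21 and 5.56.

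**Figure D5:**
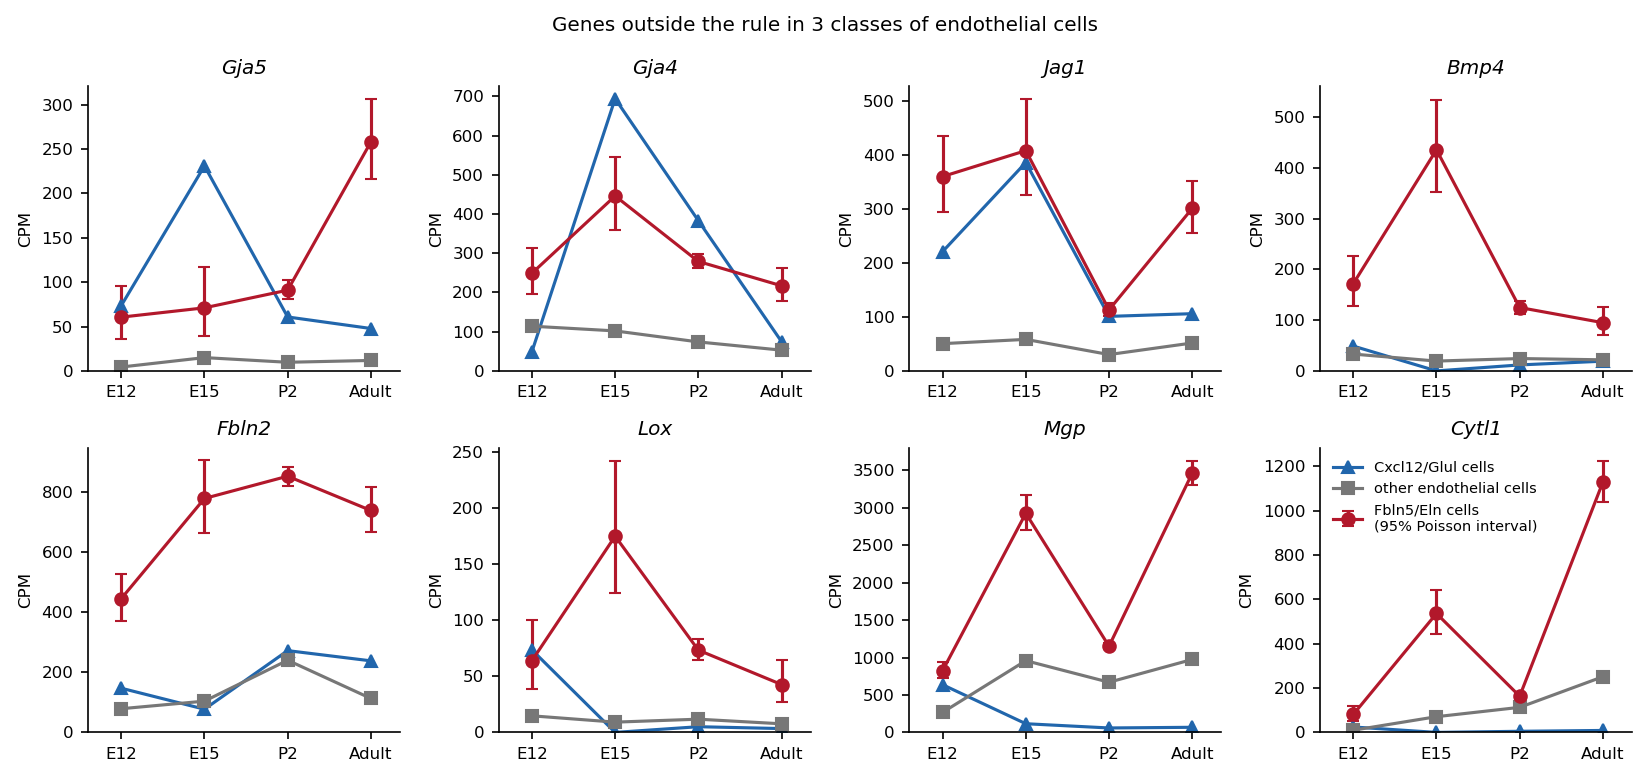
Level (CPM) of 8 genes outside the selection at the 4 stages in Fbln5/Eln cells (red, with 95% Poisson intervals), Cxcl12/Glul cells (blue; 29 and 21 cells at E12 and E15) and other endothelial cells (grey). Fbln5/Eln cells were above the other endothelial cells for each gene and stage shown, and Bmp4 and Lox were highest at E15.

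Just 2 genes were at least 2-fold lower than in other endothelial cells at every stage. Ednrb, the endothelin receptor of type B, was at 26.9, 80.6, 145 and 60.2 CPM, which was 10.8-fold (5.48 to 25.2), 4.47-fold (2.79 to 7.70), 2.32-fold (2.11 to 2.55) and 2.44-fold lower (1.69 to 3.62). Fabp5, a fatty acid binding protein, was at 465, 1977, 1350 and 448 CPM, or 3.98-fold (3.36 to 4.75), 2.14-fold (1.95 to 2.37), 2.17-fold (2.1 to 2.24) and 3.04-fold lower (2.67 to 3.49). The comparison class here includes the endocardial cells that the selection left out, and the part of that in these values was not tested.

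In the embryo the genes with the highest ratios to other endothelial cells included Dkk2, Jag1, Hotairm1, Fbln2, Bmp4 and Cytl1 at both ages. Hotairm1, a noncoding RNA of the HoxA cluster, was at 202, 156, 16.7 and 27.2 CPM, with ratios of 8.66 (6.12 to 12.2), 16.3 (10.1 to 26.1), 2.27 (1.64 to 3.1) and 1.70 (0.874 to 3.11). The ratios of Hotairm1 were thus higher in the embryonic libraries than in the later ones. Depth and the makeup of Fbln5/Eln cells differed between libraries, so no stage difference is read from this. Cdkn1c, an inhibitor of the cell cycle, was among the genes with the lowest ratios at E12 and E15, at 441 against 2519 CPM and at 479 against 1747 CPM. Emcn, the endothelial sialoprotein endomucin, was at 53.9 against 315 CPM at E12. Dkk2, a secreted Wnt antagonist, was at 179, 161, 22.2 and 79.6 CPM against 11.8, 6.88, 4.31 and 0.591 CPM. Its adult ratio of 135 (35.0 to 1149) rested on 2 UMIs in the other endothelial cells, and its 41 UMIs in Fbln5/Eln cells came from 15 cells.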

How the data were processed

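The deposited matrices hold UMI counts per gene and barcode, raw and not normalized, which the authors made with Cell Ranger 2.2 on mm10 per the submitters' processing notes. The E12 matrix held all 737280 barcodes, and those with at least 452 UMIs (10% of the 99th percentile of the top 3000 barcodes) were kept as cells, while the others were used as deposited. Totals were 9156249, 7079759, 29645059 and 7650091 UMIs, from the youngest to the oldest library. Coordinates come from GENCODE vM21, and Ltbp4 and Ccl21a, each with 2 gene identifiers, were summed.

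Counts were summed per class and library, scaled to CPM and compared after 20 CPM was added, for genes with at least 20 UMIs over both classes and outside the 19 genes of the selection. Intervals of 95% were exact (Poisson for levels, Clopper-Pearson for shares, conditional binomial for ratios), and the limit of a share of 0 was 3 counts. No model was fitted, since each stage had 1 library. Named were genes of 19 lists, the 10 highest and 10 lowest log2 ratios per stage, and genes alike in direction at every stage. Some results under this rule are not reported here. The members and lists were chosen with earlier results of these data known. No doublets were removed: Scrublet (scanpy 1.11.5) scores over 0.15 were found in 27, 28, 40 and 9 Fbln5/Eln cells, and leaving them out was an alternative. Libraries shared 25 to 60 cell barcodes in pairs, and 1 of them (E12 and P2) was a Fbln5/Eln cell in both. Calculations used Python 3.11.15 and scipy 1.17.1 and were tested on simulated counts.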

Additional observations from a re-analysis of the deposited data

Results flagged for a closer look

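The genes Gja4, Hey1 and Col18a1 stood on opposite sides of Cxcl12/Glul cells at P2 and in the adult, with 95% counting intervals that did not reach a ratio of 1 at either stage. The difference between the stages was not tested, since each stage was 1 library and the makeup of Fbln5/Eln cells also differed between them (18.1% of the P2 cells carried lymphatic genes). Gja4 had a log2 ratio of -0.43 at P2 and 1.33 in the adult. Hey1 had -1.23 at P2 and 0.44 in the adult, and Col18a1 -0.38 and 1.33.

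A further signal lay outside the cells. E12 barcodes of fewer than 100 UMIs, which no comparison used, held all 5 selecting genes, with Eln at 652 CPM, Fbln5 at 196, Htra1 at 50.8, Clu at 27.5 and Gkn3 at 16.5 CPM. In E12 Fbln5/Eln cells the same genes stood at 3045, 758, 243, 64.0 and 239 CPM.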

How the results depend on the processing

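No paired analysis was possible because each stage had 1 library. Leaving out a replicate was not possible for the same reason. The limits of the description are that stage, library and handling cannot be told apart, that intervals cover counting error only, that embryonic Fbln5/Eln cells held medians of only 1196 and 1024 UMIs and embryonic Cxcl12/Glul cells were few, and that the cells were chosen by the genes they are described with.

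The share of Fbln5/Eln cells among endothelial cells (7.23%, 4.24%, 10.3% and 5.62%, by age) was 5.52%, 3.31%, 8.01% and 4.75% with a B of at least 3 and 5.15%, 3.31%, 7.82% and 4.45% when 2 different selecting genes were needed. Thinned to 500 UMIs it was 5.55% at E12, 6.22% at P2 and 4.20% in the adult. Without cells carrying lymphatic, valve or cushion genes, an alternative chosen after seeing the data, it was 4.42%, 3.27%, 5.08% and 4.6%.

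The number of genes at least 2-fold apart from Cxcl12/Glul cells (331, 402, 249 and 360) was 38, 155, 52 and 86 with 100 CPM added, and 621 at P2 and 853 in the adult with 5 CPM added, of which 55.7% were higher in the adult against 70.6% with 20 CPM. At E12 and E15 it was 56 and 77 for genes of at least 50 UMIs and 2290 and 3033 for genes of at least 1 UMI. With reference cells chosen by A alone, without the conditions on endothelial, endocardial and mural genes, it was 186, 246 and 164 at E12, E15 and P2. With 2 different selecting genes needed it was 210 at E12. Without cells carrying the other lists it was 153, 238, 83 and 228. The higher share of these genes was 69.3% at E12 without those cells, against 83.1%, and 72.0% with reference cells chosen by A alone.

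Of 482 repeats of the ratios of 44 named genes at P2, 443 stayed on the same side of 2-fold, 31 fell inside it and 5 moved past it; in the adult these numbers were 474, 17 and 4 of 497 repeats for 46 genes. Named-gene ratios and list medians of at least 2-fold changed sign only in the alternative without cells carrying lymphatic, valve or cushion genes, which removes cells by genes of these lists. The P2 medians came to -0.33 for valve genes and -0.70 for lymphatic genes. At P2 the log2 ratio was -0.25 for Postn, -4.84 for Ccl21a and -0.46 for Mmrn1, and in the adult -0.23 for Dcn and -0.13 for Gsn. Of the smaller values, the adult smooth muscle and pericyte median (0.96) came to -0.25 with reference cells chosen by A alone, where the P2 flow median (0.15) came to -0.05, and the adult lymphatic median (0.06) lay below 0 in 4 alternatives, at the lowest -0.50. Without the removed cells Klf2 at P2 (-0.18) came to 0.06, and adult Ly6a (-0.19) and Ly6c1 (-0.42) to 0.17 and 0.02.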
